A study of Homo sapiens with 36 samples.

Results

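This comparison asks which transcripts still differed in HMC3 cells 24 h after 25 µM perfluorooctane sulfonate (PFOS) had been removed. PFOS is a persistent perfluorinated surfactant, and HMC3 is an established human cell line described in the labels as microglial. One group received 25 µM PFOS for 24 h, was then washed where needed and given fresh medium without PFOS for another 24 h. The control group received vehicle in place of PFOS and went through the same 24 h recovery. The vehicle itself is not named in the sources used here. Both groups grew in high-glucose DMEM with 10% fetal bovine serum. Each had 3 RNA-seq libraries, so the comparison rests on 6 of the series' 36 samples, chosen by their labels, and covers all genes that could be tested. The groups used beside it were vehicle and 25 µM PFOS collected directly after 24 h of exposure and 50 µM PFOS after recovery. These groups had 3 RNA-seq libraries each. A further group, 50 µM PFOS collected directly after 24 h of exposure, also had 3 RNA-seq libraries. It entered only the gene filter, the scaling and the shared estimate of spread. The labels call the libraries biological replicates. Nothing says that they came from separate cultures, so p-values measure only the spread between these libraries, which may be technical.

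Total counts were 1319266, 3982818 and 2151038 in the vehicle recovery libraries 1, 2 and 3. In the 25 µM recovery libraries they were 582233, 4346627 and 905359. Levels are given in CPM, counts relative to the TMM-scaled library size. Depth differed more between libraries than between groups. Library pairs within the groups correlated with Pearson's r of 0.951 to 0.972 over genes on the log2 CPM scale. Several defining microglial markers were absent from these libraries. Of 16 microglial or macrophage markers, 8 had no count in any of the 6 libraries, AIF1, TMEM119, CX3CR1, ITGAM and TYROBP among them. The summed level of the list was 224 to 262 CPM in vehicle and 216 to 244 CPM after 25 µM PFOS. Fibroblast and pericyte markers summed to 2840 to 3590 CPM in vehicle and 2590 to 3020 CPM after PFOS, although COL3A1 and DCN had no count. In bulk libraries, fewer cells of a type and less RNA per cell cannot be told apart.

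Several stress programmes serve as background here. In the integrated stress response, kinases that sense amino acid shortage, unfolded protein or other stress slow translation, while the transcription factor ATF4 is made in greater amount and switches on amino acid synthesis, amino acid uptake and tRNA charging. The factor NRF2 answers oxidative and electrophilic stress and drives quinone reduction, thioredoxin and glutathione recycling and iron storage in ferritin. Type I interferon switches on a shared set of antiviral genes. PPAR receptors bind fatty acids, and perfluorinated acids are known ligands of PPARα, which controls fatty acid oxidation.

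Some promoters of these genes carry short elements that ATF4 or the interferon factors bind, and 5 stretches with such a match are shown, chosen because they hold one and because the genes behind them are described below. Sequences are RefSeq promoter windows on GRCh38.p14, from 250 bases before to 50 after the gene start, written 5′ to 3′ on the gene's strand, with capitals for the matched element. The ATF4 element was searched as TGATGNAA on both strands. It was in 3.67% of 27305 promoter windows and in 2 of the 13 tested stress response regulators with a window (15.4%). The interferon element was searched on both strands as GAAA, any 2 bases and GAAA again, and overlapping matches were kept. It was in 3.65% of all windows and in 10 of the 15 tested interferon-stimulated genes with a window (66.7%). The NRF2 element was searched as TGACNNNGC on both strands. It was in 13.6% of all windows and in 3 of 12 NRF2 targets (25%). A match describes letters and is no evidence of binding. The windows of TRIB3, SESN2, DDIT4, DDIT3, PSAT1, PHGDH, PCK2 and SLC6A9 had 0 matches to the ATF4 element, those of NQO1, FTL and OSGIN1 had 0 to the NRF2 element, and that of OAS1 had 0 to the interferon element, which says only that these letters are not in these windows. ASNS encodes asparagine synthetase, and its stretch of 120 bases before the start, chr7:97872409-97872528 on the minus strand, holds the element 68 bases before the start. The stretch of SLC3A2, chr11:62881719-62881748 on the plus strand, has it on the opposite strand, 38 bases after the start that the table uses. IFIT1 at chr10:89392503-89392622 and ISG15 at chr1:1013377-1013496, both on the plus strand, have 2 matches each, which lie on the opposite strand in IFIT1 and overlap each other in ISG15. MX1 at chr21:41420558-41420587 on the plus strand has its match 12 bases after the start.
ASNS: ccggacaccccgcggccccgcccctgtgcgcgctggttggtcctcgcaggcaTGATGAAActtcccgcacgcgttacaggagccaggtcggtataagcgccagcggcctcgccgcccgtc
SLC3A2: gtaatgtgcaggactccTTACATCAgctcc
IFIT1: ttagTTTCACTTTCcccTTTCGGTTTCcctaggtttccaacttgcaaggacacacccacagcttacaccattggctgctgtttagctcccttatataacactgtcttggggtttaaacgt
ISG15: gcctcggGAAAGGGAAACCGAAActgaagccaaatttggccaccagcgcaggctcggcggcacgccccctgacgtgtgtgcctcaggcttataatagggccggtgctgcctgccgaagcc
MX1: cgagcagaaatGAAACCGAAActgaattgt

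After recovery no single gene of 9847 tested differed between 25 µM PFOS and vehicle at an adjusted p under 0.05 (edgeR's quasi-likelihood test over all 18 RNA-seq libraries, Benjamini-Hochberg over all genes, 0% called). The lowest adjusted p was 0.488. An unadjusted p under 0.05 was reached by 693 genes (7.04%), 291 of them higher (2.96%) and 402 lower (4.08%) after PFOS. The 3 PFOS libraries lay wholly above or wholly below the 3 vehicle libraries for 1359 genes (13.8%), 678 above (6.89%) and 681 below (6.92%). These shares of all genes are the background for the counts of list members below. Of all genes, 49.9% were above 0 and the median log2 change was 0.00, which the TMM scaling largely sets. The absence of calls depended on which libraries shared the estimate of spread. In a fit of the 15 libraries without 50 µM PFOS after recovery, 9 of 10009 genes were called (0.0899%), 7 higher (0.0699%) and 2 lower (0.02%). That result in turn needed 2 particular libraries: none was called when 25 µM recovery library 1 or library 2 was left out of the 15, and 7 were called without library 3, of which 5 were among the 9. Leaving out vehicle recovery library 1, 2 or 3 gave 20, 36 and 46 calls, with 8, 6 and 9 of the 9 among them. DESeq2 on all 18 libraries called only SLC3A2.

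The 9 genes were SLC3A2, TRIB3, NQO1, FTL, FTH1, ACADVL and ECH1 on the higher side and ZNF804A and VCAN on the lower side. By their known roles they fall into amino acid stress (SLC3A2, TRIB3), NRF2 and iron storage (NQO1, FTL, FTH1), fatty acid oxidation (ACADVL, ECH1), and matrix (VCAN), with the zinc finger gene ZNF804A beside them. The adjusted p in the 15-library fit was between 0.013 and 0.0417. Values below are from the 18-library fit unless the other is named, so a log2 change given without the word called did not pass the test.

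SLC3A2 (chr11:62856109-62888860) encodes the heavy chain that carries the cystine and the large neutral amino acid transporters to the cell surface. It measured 314, 307 and 330.0 CPM in the vehicle recovery libraries and 491, 534 and 439.7 CPM after 25 µM PFOS. Every PFOS library lay above every vehicle library. The means were 317 ± 11.6 and 488 ± 47.2 CPM (SD, n = 3), a log2 difference of 0.63 ± 0.14 (SE; adjusted p = 0.488), and in the 15-library fit it was 0.64 with an adjusted p of 0.013. The partner chain SLC7A11, which imports cystine for glutathione synthesis, measured 6.89, 12.6 and 14.2 CPM in vehicle and 23.5, 22.1 and 18.4 CPM after PFOS. These groups did not overlap either, and the log2 difference was 0.86 ± 0.31 (adjusted p = 0.565). SLC6A9, a glycine transporter, measured 12.3, 20.2 and 17.4 CPM in vehicle and 33.5, 34.6 and 23.8 CPM after PFOS, again without overlap, with a log2 difference of 0.86 ± 0.26. Among 10 tested amino acid transporters, 8 were higher and 2 lower, 4 were higher at an unadjusted p under 0.05, and 3 lay wholly above vehicle. Their median log2 change was 0.46, and by library it was 0.18, 0.75 and 0.25 after PFOS against -0.02, 0.04 and 0.07 in vehicle, so 25 µM library 2 stood highest. Without that library the list's median was 0.18.

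The regulators of the integrated stress response showed 13 of 13 tested members above 0, with 6 at an unadjusted p under 0.05 and 6 wholly above vehicle. The list's median log2 change was 0.39, beside 0.00 over all genes. TRIB3 (chr20:380760-397559), a pseudokinase that restrains ATF4 in feedback, measured 66.6, 52.9 and 82.4 CPM in vehicle and 121, 152 and 96.2 CPM after PFOS. The lowest PFOS library was above the highest vehicle library. The log2 difference was 0.90 ± 0.25 (adjusted p = 0.523), and the 15-library fit called it at 0.94 (adjusted p = 0.0252). SESN2, a leucine sensor that holds back mTORC1, was at 39.1, 32.5 and 45.3 CPM in vehicle and 77.1, 71.2 and 63.7 CPM after PFOS, with a log2 difference of 0.87 ± 0.28. DDIT4, another brake on mTORC1, differed by 0.50 ± 0.18, or by 0.32 with each library's trend with gene span removed, and DDIT3, which encodes the stress factor CHOP, by 0.63 ± 0.25. In both genes the groups lay apart, although neither passed the adjustment over all genes (adjusted p = 0.565 and 0.616).

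Amino acid synthesis had 12 of 13 tested enzymes above vehicle and 1 below. Of these, 6 were higher at an unadjusted p under 0.05, 7 lay wholly above vehicle, and the median log2 change was 0.32. PSAT1, the aminotransferase of serine synthesis, measured 403, 467 and 519.9 CPM in vehicle and 718, 608 and 643 CPM after PFOS, without overlap, and the log2 difference was 0.50 ± 0.13 (adjusted p = 0.523). PHGDH, which commits a glycolytic intermediate to that pathway, measured 164, 161 and 190.4 CPM in vehicle and 243, 256 and 231 CPM after PFOS, a log2 difference of 0.51 ± 0.16. The mitochondrial folate enzyme ALDH1L2 differed by 0.66 ± 0.22 and the mitochondrial carboxykinase PCK2 by 0.59 ± 0.22, both without overlap. ASNS, whose promoter stretch is printed above, measured 99.6, 114 and 163 CPM in vehicle and 161, 153 and 145 CPM after PFOS. Vehicle library 3 lay above all PFOS libraries, so the groups overlapped, and the log2 difference was 0.27 ± 0.19 with a 95% interval of -0.13 to 0.68. It was 0.17 without vehicle library 1 and 0.51 without vehicle library 3.

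The tRNA synthetases, which charge tRNAs with amino acids, were higher in 15 of 18 tested members, with 4 at an unadjusted p under 0.05 and a smaller median log2 change of 0.10, which was 0.07 without 25 µM library 1 and 0.17 without vehicle library 3. GARS, for glycine, measured 211, 251 and 245 CPM in vehicle and 283, 295 and 289.6 CPM after PFOS, a log2 difference of 0.29 ± 0.12. CARS, for cysteine, measured 249, 249.7 and 241 CPM in vehicle and 308, 329.6 and 322 CPM after PFOS, a log2 difference of 0.38 ± 0.15. Both genes were without overlap between groups. Chaperones and folding enzymes of the endoplasmic reticulum were divided, with 11 of 20 higher, 9 lower, 0 at an unadjusted p under 0.05 and a median log2 change of 0.00. HSPA5, the main luminal chaperone, measured 1539.6, 1535 and 1553 CPM in vehicle and 1636, 1699 and 1670.3 CPM after PFOS. All 3 PFOS libraries were above vehicle, but by a log2 difference of only 0.11 ± 0.11 (95% interval -0.11 to 0.34), or 0.016 with the gene-span trend removed.

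**Figure D1:**
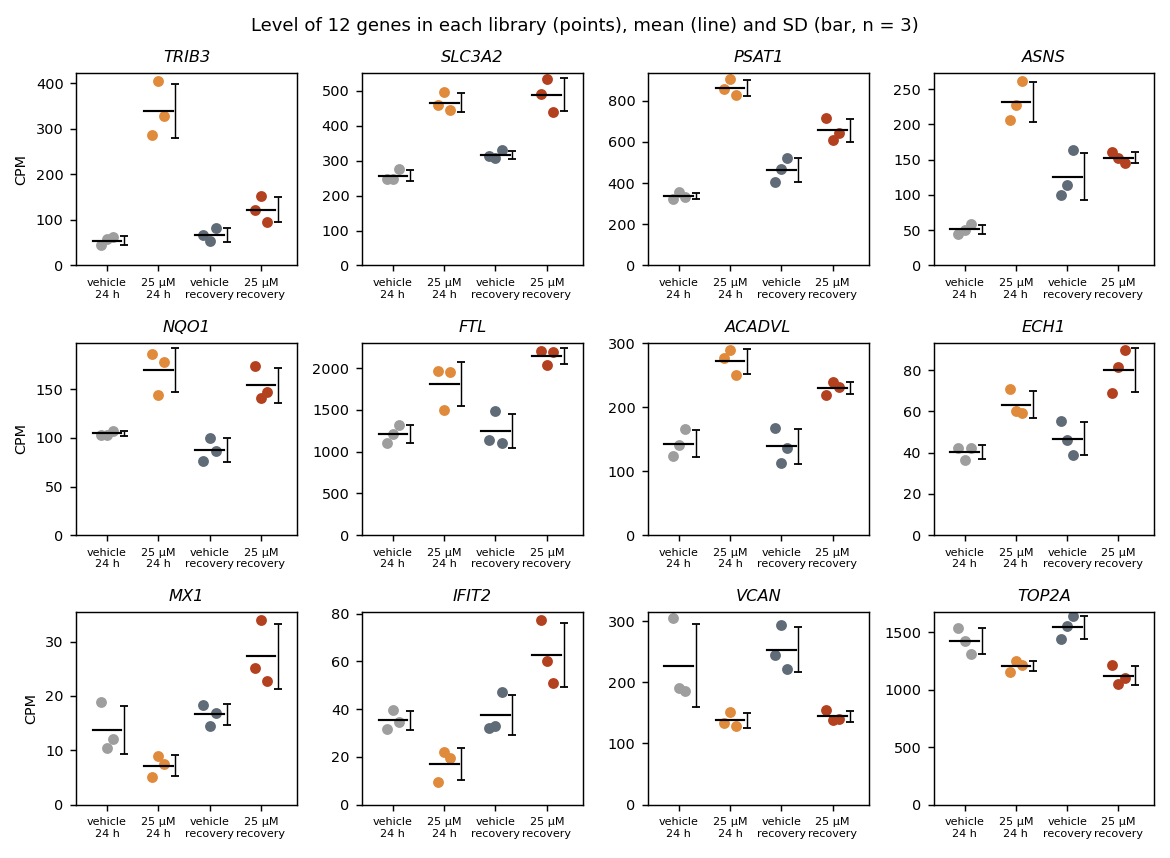
Level in CPM of 12 genes in each library of vehicle and 25 µM PFOS, at 24 h and after recovery, with points for libraries, a line for the mean and a bar for the SD (n = 3). The plots of TRIB3 and ASNS are highest at 24 h with 25 µM PFOS, whereas SLC3A2, NQO1, FTL and ECH1 reach similar or higher levels after recovery, and MX1 and IFIT2 lie below vehicle at 24 h and above it after recovery.

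The NRF2 targets had 14 of 19 tested members higher and 5 lower, with 6 higher at an unadjusted p under 0.05, 6 wholly above vehicle and a median log2 change of 0.27. NQO1 (chr16:69709401-69726560), the quinone reductase used as a readout of NRF2, measured 75.8, 100.4 and 87.0 CPM in vehicle and 174, 141 and 147 CPM after PFOS. The PFOS libraries were all above vehicle, at means of 154 ± 17.8 against 87.7 ± 12.3 CPM (SD, n = 3). The log2 difference was 0.79 ± 0.17 (adjusted p = 0.488), it was called in the 15-library fit (adjusted p = 0.0186), and at 24 h the log2 difference between 25 µM PFOS and vehicle had been 0.69 ± 0.17, called with an adjusted p of 0.0418.

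Ferritin stores iron in a shell of light chains (FTL) and heavy chains (FTH1). FTL (chr19:48965309-48966879) measured 1144, 1485 and 1108 CPM in vehicle and 2208, 2037 and 2199.7 CPM after PFOS, a log2 difference of 0.79 ± 0.21 (adjusted p = 0.523). FTH1 measured 551, 626 and 581 CPM in vehicle and 843, 797 and 896 CPM after PFOS, a log2 difference of 0.53 ± 0.16 (adjusted p = 0.523). Neither chain overlapped between groups, and the 15-library fit called both (adjusted p = 0.013 and 0.0252). Ferritin genes have many processed pseudogenes, so the division of reads among copies is uncertain. They are also short genes, and removing each library's trend with gene span lowered their log2 differences to 0.61 and 0.38, as given further on. OSGIN1, a small NRF2-driven growth inhibitor, was at low levels of 3.06, 3.93 and 2.29 CPM in vehicle and 6.71, 8.71 and 6.48 CPM after PFOS, without overlap, with a log2 difference of 1.26 ± 0.34. TXNRD1, which reduces thioredoxin, measured 303, 308 and 412 CPM in vehicle and 463, 449.9 and 397 CPM after PFOS, and vehicle library 3 overlapped the PFOS libraries (log2 difference 0.35 ± 0.15).

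Fatty acid oxidation contributed 2 of the called genes, ACADVL and ECH1. ACADVL (chr17:7217125-7225266) opens mitochondrial β-oxidation of very long chains and measured 167, 113 and 136 CPM in vehicle and 219.6, 239.6 and 231 CPM after PFOS. The log2 difference was 0.75 ± 0.19 (adjusted p = 0.523), with an adjusted p of 0.0252 in the 15-library fit. ECH1 (chr19:38815422-38831794), an isomerase for unsaturated fatty acids, measured 55.2, 46.1 and 38.9 CPM in vehicle and 68.7, 81.5 and 89.7 CPM after PFOS, a log2 difference of 0.80 ± 0.19 (adjusted p = 0.488, and 0.0252 in the 15-library fit). In both genes each PFOS library exceeded each vehicle library. ACAA2, the thiolase of the last step, differed by 0.37 ± 0.19, also without overlap. The list of PPAR targets and oxidation enzymes as a whole was split, with 7 of 13 tested members higher, 6 lower and a median log2 change of 0.02. ECH1 is not a member of that list. ANGPTL4, a lipase inhibitor that PPAR receptors drive, was at 7.92, 13.5 and 17.6 CPM after 24 h of 25 µM PFOS and had no count in vehicle at that time. After recovery it had counts of 0, 0 and 1 in vehicle and of 0, 1 and 0 after PFOS. Both groups were thus at or under a floor of 3 counts, and the fitted log2 difference of 0.18 ± 1.52 is not read as a change.

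Genes called at 24 h can be followed into recovery, because the recovery libraries and their vehicle controls are separate from the 24 h libraries. At 24 h, 122 genes were called between 25 µM PFOS and vehicle (1.24%), 77 higher (0.782%) and 45 lower (0.457%). Of the 77 higher genes, 68 were above vehicle after recovery as well (88.3%), 29 of them at an unadjusted p under 0.05 and 30 without overlap, and 0 lay wholly below vehicle. The median log2 difference of the 77 was 1.07 at 24 h and 0.31 after recovery. Of the 45 lower genes, 29 stayed on the lower side (64.4%), 9 without overlap, while 3 lay wholly above vehicle, and the median went from -0.89 to -0.10. Over all genes tested, 6.89% lay wholly above vehicle, 6.92% wholly below, and 2.96% were higher at an unadjusted p under 0.05. The 3 of 45 genes wholly above vehicle are thus close to the share over all genes. Signed by the 24 h direction, the 122 genes had medians of 0.03, -0.07 and 0.06 in the vehicle recovery libraries and 0.22, 0.20 and 0.16 in the 25 µM libraries, so each PFOS library stood above each vehicle library. ANGPTL4 is among the 77, and by its fitted log2 difference among the 68, although its recovery counts are at the floor. Without it 67 of 76 were above vehicle (88.2%), the recovery median was still 0.31, and the signed median over 121 genes was 0.22. Part of the smaller difference after recovery follows from choosing the genes by their 24 h values, and this share was not tested. Leaving out one library moved the signed recovery median of 0.21 between 0.20 and 0.31.

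The genes that kept the most included NQO1, the 1 gene whose log2 difference was larger after recovery, OSGIN1 (1.41 at 24 h and 1.26 after recovery), ACADVL (0.92 and 0.75) and SLC3A2 (0.85 and 0.63). At least 50% of the 24 h log2 difference remained in 13 of the 77 higher genes and 8 of the 45 lower ones. ABCA8, a lipid transporter of the ABC family, had the lowest unadjusted p after recovery among the 45 lower genes. It measured 59.0, 52.9 and 52.6 CPM in vehicle and 23.5, 30.8 and 27 CPM after PFOS, without overlap, and its log2 difference was -0.95 ± 0.24 after recovery and -1.08 ± 0.23 at 24 h.

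**Figure D2:**
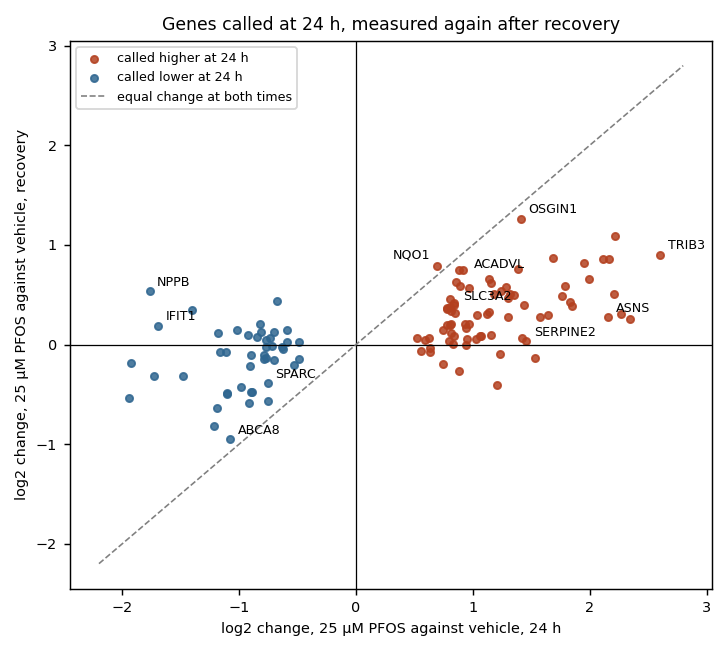
Log2 difference between 25 µM PFOS and vehicle at 24 h (horizontal axis) and after recovery (vertical axis) for genes called at 24 h, red for 76 of the 77 higher and blue for the 45 lower. ANGPTL4 is not plotted because its counts after recovery were at the floor. The dashed line marks equal differences, and most points lie between it and 0.

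The difference between the recovery effect and the 24 h effect was tested directly as an interaction. In the 18-library fit 2 genes were called (0.0203%), ASNS and SERPINE2, both with a smaller effect after recovery. SERPINE2 (chr2:223975045-224039286), a secreted inhibitor of thrombin and plasminogen activators, measured 122, 143 and 141 CPM in vehicle and 354, 395 and 374 CPM with 25 µM PFOS at 24 h. After recovery it measured 195, 167 and 195 CPM in vehicle and 178, 197 and 192 CPM after PFOS. The groups lay far apart at 24 h and overlapped after recovery. The interaction was -1.43 ± 0.18 (adjusted p = 0.00147), and the recovery difference was 0.03 ± 0.13 with a 95% interval of -0.24 to 0.31. ASNS (chr7:97851677-97928441) measured 44.7, 49.7 and 58.6 CPM in vehicle and 206, 227 and 262 CPM with PFOS at 24 h. Its interaction was -1.88 ± 0.28 (adjusted p = 0.00534). The vehicle mean of ASNS was itself 51.0 ± 7.04 CPM at 24 h and 126 ± 33.5 CPM after recovery (SD, n = 3).

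The 15-library fit called 48 genes in the interaction (0.48%), 30 with a more positive effect after recovery (0.3%) and 18 with a more negative one (0.18%), and leaving out one library gave between 22 and 66. Stress response genes were among the second set. TRIB3 had an interaction of -1.65 there (adjusted p = 0.00116), STC2, a secreted glycoprotein, -1.04 (adjusted p = 0.0011), PSAT1 -0.85 and HSPA5 -0.69. The levels of STC2 were 471, 486 and 522 CPM with PFOS at 24 h and 236, 279 and 238 CPM after recovery, where vehicle measured 247, 225 and 236 CPM. Those recovery groups overlapped. SLC3A2, in contrast, had an interaction of only -0.22 (adjusted p = 0.718) and NQO1 of 0.09 (adjusted p = 0.938), so no difference between the times was shown for them.

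On the positive side of the interaction stood genes that were low in PFOS at 24 h and near or above vehicle after recovery. TGFB2, a growth factor of the TGF-β family, measured 412, 446 and 408 CPM in vehicle and 230.4, 237 and 237 CPM with PFOS at 24 h, then 449.6, 416 and 467 CPM in vehicle and 431, 488 and 478 CPM after PFOS. The 24 h groups lay apart and the recovery groups overlapped, and the interaction was 0.93 in the 15-library fit (adjusted p = 0.00235, against 0.313 with 18 libraries). Of 25 tested cholesterol genes, 21 were above and 4 below vehicle after recovery, with a median log2 change of 0.15, where the median at 24 h had been -0.36. In the interaction, 9 of the 25 had a more positive effect after recovery at an unadjusted p under 0.05 and 0 a more negative one, beside 2.09% and 2.56% of all genes. TM7SF2, a sterol reductase of that pathway, measured 59.0, 51.9 and 40.7 CPM in vehicle and 73.8, 102 and 64.8 CPM after PFOS, without overlap, a log2 difference of 0.72 ± 0.22, or of 0.46 without 25 µM library 2.

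Interferon-stimulated genes leaned higher after recovery and lower at 24 h. After recovery 17 of 20 tested members were above vehicle and 3 below, 7 were higher at an unadjusted p under 0.05, 8 lay wholly above and 1 wholly below vehicle, and the median log2 change was 0.51. That median depended on the setting, from 0.36 without 25 µM library 1 to 0.53 with only the 4 vehicle and 25 µM groups, and it was 0.39 with DESeq2. At 24 h the median had been -0.59. MX1, a GTPase that traps viral nucleocapsids, measured 18.8, 10.4 and 12.1 CPM in vehicle and 5.04, 8.90 and 7.55 CPM with PFOS at 24 h. After recovery it measured 18.4, 14.4 and 16.9 CPM in vehicle and 25.1, 33.9 and 22.7 CPM after PFOS. PFOS libraries were all below vehicle at the first time and all above it at the second. The log2 difference was -0.75 ± 0.28 at 24 h and 0.82 ± 0.24 after recovery, and neither passed the adjustment (adjusted p = 0.351 and 0.523). Without 25 µM library 2 the recovery difference of MX1 was 0.54.

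IFIT2, which binds viral RNA, measured 31.8, 39.6 and 34.5 CPM in vehicle and 9.36, 21.9 and 19.5 CPM with PFOS at 24 h, then 32.2, 33 and 47.1 CPM in vehicle and 77.1, 60.3 and 50.8 CPM after PFOS. Its groups lay apart at both times, in opposite order, with log2 differences of -1.01 ± 0.25 and 0.72 ± 0.23. The interaction was 1.73 ± 0.34 (adjusted p = 0.0726) with 18 libraries and 1.71 (adjusted p = 0.00643) with 15. IFIT1 measured 41.2, 26.7 and 25.9 CPM in vehicle and 11.5, 7.28 and 10.1 CPM with PFOS at 24 h, without overlap, and 31.4, 40.1 and 30.7 CPM in vehicle and 46.9, 33.9 and 42.1 CPM after PFOS in recovery, where the groups overlapped. For IFIT1, too, only the 15-library fit called the interaction (adjusted p = 0.00618). ISG15, a ubiquitin-like modifier, measured 23.0, 37.7 and 16.5 CPM in vehicle and 40.2, 46.2 and 49.7 CPM after PFOS, a log2 difference of 0.78 ± 0.30, or of 1.27 without vehicle library 2. OAS1, which makes the oligoadenylate signal for RNA decay, was near the lower limit of these libraries, at 4.60, 3.93 and 3.20 CPM in vehicle and 5.03, 9.60 and 7.56 CPM after PFOS. Both genes were without overlap (adjusted p = 0.607 and 0.611). Over the list, 11 members had a more positive effect after recovery at an unadjusted p under 0.05 and 0 a more negative one. Over all genes these shares were 2.09% and 2.56%. The list's median interaction was 1.07. By library the list's median stood at 0.36, 0.43 and 0.44 after PFOS and at -0.09, 0.04 and 0.01 in vehicle. Class I antigen presentation genes were divided, with 6 of 12 higher, 6 lower and a median of 0.02.

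Targets of p53, the factor that halts the cycle after DNA damage, were higher in 17 of 19 tested members, with a median log2 change of 0.23. Of these, 3 were at an unadjusted p under 0.05 and 5 lay wholly above vehicle, against 2.96% and 6.89% of all genes. The list's medians by library were 0.24, 0.23 and 0.21 after PFOS and 0.00, -0.04 and 0.01 in vehicle, and with the span trend removed its overall median was 0.17, while with libraries thinned to equal depth it was 0.37. GADD45A, a growth arrest gene that ATF4 also drives, measured 42.1, 39.6 and 45.3 CPM in vehicle and 68.7, 64.5 and 54.0 CPM after PFOS, a log2 difference of 0.56 ± 0.20 without overlap. FDXR, the mitochondrial ferredoxin reductase, differed by 0.73 ± 0.26, and DDB2, which recognises UV-damaged DNA, by 0.40 ± 0.17 (0.65 after thinning). In both, 1 vehicle library reached into the PFOS range.

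Genes of mitosis were lower in 25 of 27 tested members. Of these, 9 were lower at an unadjusted p under 0.05 and 11 lay wholly below vehicle, against 4.08% and 6.92% of all genes. The median log2 change was -0.23, beside -0.20 at 24 h. TOP2A, the topoisomerase that untangles sister chromatids, measured 1438, 1551 and 1638 CPM in vehicle and 1212, 1053 and 1099 CPM after PFOS. The groups lay apart, and the log2 difference was -0.46 ± 0.12 (adjusted p = 0.523). KIF11, the motor that pushes spindle poles apart, measured 226, 202 and 253 CPM in vehicle and 178, 169 and 173 CPM after PFOS, a log2 difference of -0.39 ± 0.13. AURKA, the centrosomal kinase, measured 670.2, 753 and 802 CPM in vehicle and 588, 550.2 and 618 CPM after PFOS, a log2 difference of -0.34 ± 0.12. Each of these was without overlap and none passed the adjustment. The list's median by library was -0.27, -0.29 and -0.21 after PFOS against -0.05, -0.05 and 0.12 in vehicle.

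DNA replication genes were mostly on the other side. Of 28 tested, 21 were above and 7 below vehicle, with a median log2 change of 0.07 and 1 at an unadjusted p under 0.05. That one was UHRF1, which carries DNA methylation through replication, at 49.0, 23.6 and 32.5 CPM in vehicle and 53.7, 67.9 and 55.1 CPM after PFOS, without overlap (log2 difference 0.84 ± 0.27, adjusted p = 0.539). CDC25A, the phosphatase that lets cells enter S phase, had the lowest unadjusted p of all lower genes. It measured 13.0, 15.7 and 9.61 CPM in vehicle and 8.38, 4.02 and 3.24 CPM after PFOS, a log2 difference of -1.53 ± 0.32 (adjusted p = 0.488), and at 24 h the difference had been -0.16 ± 0.24. Every PFOS recovery library was below every vehicle recovery library, at few counts per library.

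**Figure D3:**
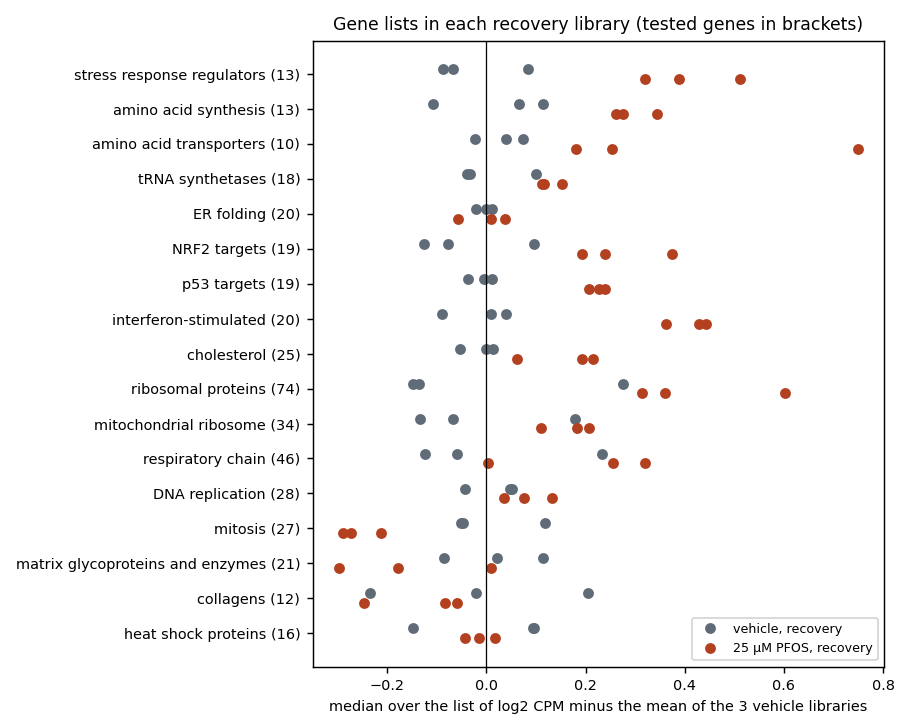
Median over each gene list of log2 CPM minus the mean of the 3 vehicle recovery libraries, with 1 point per library, grey for vehicle and red for 25 µM PFOS, and the number of tested genes in brackets. The red points lie wholly right of the grey ones for the stress response, amino acid, NRF2, p53 and interferon lists and wholly left of them for mitosis, and they overlap for endoplasmic reticulum folding, collagens and heat shock proteins.

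Genes of the extracellular matrix leaned to the lower side without a common direction. Of 21 tested matrix glycoproteins and enzymes, 13 were lower and 8 higher, with 5 lower at an unadjusted p under 0.05, 7 wholly below and 2 wholly above vehicle, and a median log2 change of -0.13. VCAN (chr5:83471744-83582302), a large chondroitin sulfate proteoglycan, measured 245, 295 and 222 CPM in vehicle and 154, 138 and 140.5 CPM after PFOS. The groups were far from overlapping, and the log2 difference was -0.82 ± 0.20 (adjusted p = 0.523, and 0.0417 in the 15-library fit, which called it), with -0.70 ± 0.20 at 24 h. SPARC, a collagen-binding glycoprotein, measured 2318, 2728 and 2215 CPM in vehicle and 1947, 1802 and 1812 CPM after PFOS, a log2 difference of -0.39 ± 0.12, and had been called lower at 24 h (-0.75 ± 0.12, adjusted p = 0.0015). Of 12 tested collagens, 9 were lower and 3 higher, but only COL4A2, a basement membrane chain, lay wholly below vehicle, at 421, 342 and 242 CPM in vehicle and 179, 211 and 202 CPM after PFOS (log2 difference -0.75 ± 0.31). Its vehicle libraries differed widely among themselves.

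Other genes with low unadjusted p on the lower side included 2 DNA-binding proteins. ZNF804A (chr2:184598529-184939492), a zinc finger protein, measured 59.0, 51.6 and 51.3 CPM in vehicle and 31.9, 21.4 and 32.4 CPM after PFOS, a log2 difference of -1.01 ± 0.23 (adjusted p = 0.488), and the 15-library fit called it (adjusted p = 0.0252). SP1, a widely used transcription factor, measured 68.2, 88.3 and 55.4 CPM in vehicle and 38.6, 30.4 and 47.5 CPM after PFOS. The SP1 groups lay apart, with a log2 difference of -0.93 ± 0.22 (adjusted p = 0.488), and at 24 h it had been 0.18 ± 0.22. Heat shock proteins showed no shared direction, at 7 of 16 higher, 9 lower and a median of -0.01. DNAJB1, their stress-induced co-chaperone, measured 774, 1011 and 602 CPM in vehicle and 539.9, 514 and 533 CPM after PFOS, without overlap, a log2 difference of -0.59 ± 0.18, with vehicle library 2 the highest of all. Without that library the difference was -0.36.

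Ribosomal protein genes were higher in 69 of 74 tested members, 32 of them wholly above vehicle (against 6.89% of all genes), with a median log2 change of 0.42. Only 5 reached an unadjusted p under 0.05, where 2.96% of all genes did so on the higher side. RPL3, a core protein of the large subunit, measured 1065, 1235 and 1073 CPM in vehicle and 1420.1, 1475 and 1382 CPM after PFOS, without overlap, a log2 difference of 0.34 ± 0.14 (adjusted p = 0.616). The list's median by library was 0.36, 0.31 and 0.60 after PFOS and -0.14, 0.28 and -0.15 in vehicle, so vehicle library 2 lay close to the PFOS libraries. Ribosomal protein genes held 2.01%, 1.84% and 2.22% of counts in the 25 µM libraries and 1.54%, 2.03% and 1.41% in vehicle, which overlap. Their many processed copies make the division of reads uncertain. The same direction appeared in 26 of 34 mitochondrial ribosomal genes (median 0.18), 35 of 46 respiratory chain genes (median 0.15) and 22 of 30 proteasome genes (median 0.15). In that order, 1, 3 and 1 members were higher at an unadjusted p under 0.05. By library the medians of the groups overlapped in each of these lists, with vehicle library 2 above 25 µM library 2.

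These lists hold short genes, and the change after recovery went with the length of the gene in the genome. Over 9806 genes with a known span, Spearman's rho between span and the log2 change was -0.26, and it was -0.11 at 24 h. Genes are not independent replicates, and this is a description. In 5 equal bins by span, the bin of shortest genes, with a median span of 5.94 kb, had a median log2 change of 0.13. The bin of longest genes, at 153 kb, had one of -0.10. By library, rho between span and the level relative to the vehicle recovery mean was -0.15, -0.25 and -0.20 after 25 µM PFOS and -0.05, -0.17 and 0.22 in vehicle. The vehicle libraries are measured against their own mean, so their trends must roughly cancel. The PFOS libraries are measured against the same mean, so these values cannot show which library is unusual. With each library's span trend removed, the ribosomal median was 0.30, the list of stress regulators 0.32, the NRF2 targets 0.25, the interferon-stimulated genes 0.47, and mitosis -0.25. The NQO1 and SLC3A2 differences were then 0.76 and 0.64. Beyond this removal, the part of gene span in the results was not tested.

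**Figure D4:**
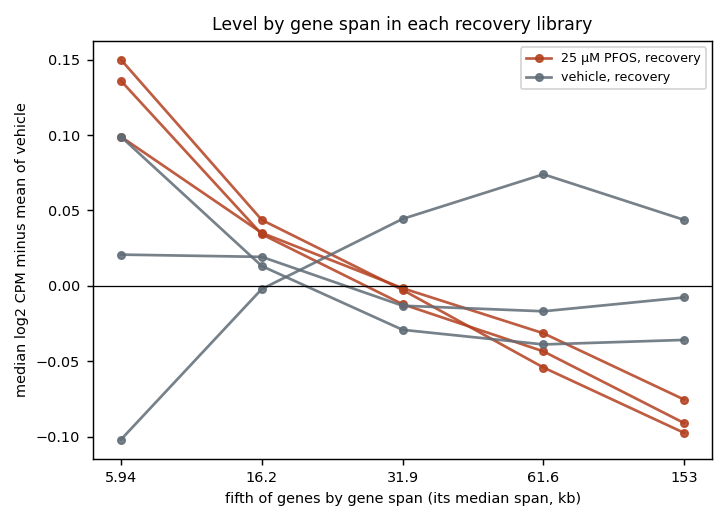
Median log2 CPM relative to the mean of the vehicle recovery libraries in 5 equal bins of genes by span, with the median span of each bin in kb on the horizontal axis and 1 line per library, red for 25 µM PFOS and grey for vehicle. The red lines descend from short to long genes, while the grey lines differ among themselves and 1 of them ascends. Grey lines are relative to their own mean, so their trends must roughly cancel.

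The remaining lists gave small or divided differences after recovery. Inflammatory cytokines and regulators of NF-κB had 7 of 8 tested members higher and a median of 0.28, with 0 at an unadjusted p under 0.05, and their median by library ranged from 0.02 to 0.64 after PFOS. Immediate early genes had 10 of 15 lower and a median of -0.17. Targets of TGF-β and YAP had 10 of 14 higher with a median of 0.09, after a median of -0.35 at 24 h. Fatty acid synthesis (7 of 14 higher), glycolysis and hypoxia (10 of 20), lysosome and autophagy (13 of 23) and histone acetylation genes (11 of 20) were divided, with medians between -0.02 and 0.08. Of 7 metallothionein and zinc genes only 2 were tested, and neither reached an unadjusted p under 0.05.

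The 50 µM recovery libraries stood apart from the rest. Their pairs correlated at 0.849 to 0.937, ribosomal protein genes held 2.96%, 7.61% and 5.05% of their counts, and rho between gene span and level was -0.28, -0.22 and -0.36. The part of these properties in the values that follow was not tested. The 25 µM libraries enter both comparisons, so values are only set side by side. Between 50 and 25 µM PFOS after recovery, 2172 of 9847 genes were called (22.1%), 1445 higher and 727 lower at 50 µM. However, a fit of these 2 groups alone called 0 (lowest adjusted p 0.079, 2000 genes at an unadjusted p under 0.05). FTL was higher at 50 µM by a log2 difference of 1.76 (adjusted p = 0.00014), FTH1 by 1.27 and NQO1 by 1.22, where 25 µM had exceeded vehicle by 0.79, 0.53 and 0.79. Of 19 NRF2 targets, 7 were called higher and 0 lower at 50 than at 25 µM. The background for this and the next counts is 1445 higher and 727 lower among all 9847 genes. Of 13 regulators of the integrated stress response, 1 was called higher and 7 lower, of 13 amino acid synthesis enzymes 0 and 9, and of 10 amino acid transporters 0 and 6. The log2 difference was -1.85 for SLC6A9, -1.20 for PCK2, -1.07 for SESN2 and -0.85 for TRIB3 (adjusted p between 0.001 and 0.0273). DDIT3 was the regulator called higher, by 1.23 (adjusted p = 0.00155), and SLC7A11 at -0.35 (adjusted p = 0.491) did not pass the test.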

How the data were processed

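Smart-seq2 libraries of poly(A) RNA carry no molecular identifiers or strand marks. As deposited by the authors, the table holds raw, unnormalized counts for each symbol in 18 libraries, per the file headers. The tools Trimmomatic, STAR and DESeq2 and builds GRCh38 and hg38 are listed, without roles or versions, per the submitters' processing notes. How reads were counted is not stated there, so overlapping genes and near-identical copies are uncertain. CUT&Tag was not analysed here.

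Of 25344 symbols, filterByExpr (minimum count 10) kept 9847, holding 99.2% of counts. With edgeR 4.0.16 (R 4.3.3, TMM), 1 mean per group was fitted to the 18 libraries with a shared spread (median biological coefficient of variation 16%). Two-sided quasi-likelihood tests were adjusted by Benjamini-Hochberg over all genes at 0.05. Contrasts were 25 µM PFOS minus vehicle after recovery and at 24 h, their difference (interaction), and 50 minus 25 µM after recovery. SE was derived from the log2 change and its p. Vehicle and 25 µM recovery replicates differed beyond counting noise (chi-square per degree of freedom 1.29 to 10.6), and so did those at 50 µM (4.46 to 21.4). Scripts were tested on simulated data. Alternatives were DESeq2 1.42.0 and its size factors, other filters and library sets, a replicate block, span-trend removal, thinning and leaving out libraries. RefSeq on GRCh38.p14, which matched 95.5% of symbols, gave positions, spans and promoters.

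Named genes were those of lowest p in the comparison (groups apart, at least 10 CPM) or in a list, genes called at 24 h or in the interaction, and preset stress, lipid and inflammation genes. GOLPH3, PRDX3 and ROMO1 were named after their values were seen. Members and lists were chosen with earlier results of these data known, so lists have counts and medians but no test.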

Additional observations from a re-analysis of the deposited data

Results flagged for a closer look

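For SERPINE2 and ASNS the effect of 25 µM PFOS differed between the times by the interaction test of edgeR over all genes. The log2 effect after recovery minus that at 24 h was -1.426 for SERPINE2, an inhibitor of secreted serine proteases, and -1.884 for ASNS, asparagine synthetase. Both were higher with PFOS in 3 of 3 libraries at 24 h, and after recovery their groups overlapped. The cause was not tested.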

How the results depend on the processing

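After recovery the count of called genes stayed at 0 with another size factor, a 10 CPM filter, only the 2 groups, thinning, span removal and each library left out. It was 1 with DESeq2, 5 without a filter (FTL and TRIB3 higher, GOLPH3, PRDX3 and ROMO1 lower), 9 without the 50 µM recovery group and 7 with only the 4 vehicle and 25 µM groups, a setting chosen after seeing the data. For the interaction (2 called) these gave 36, 10, 48 and 35, with 35 from only the groups compared, 4 after thinning and 2 to 3 with a library left out. At 24 h (122 called), only the groups compared gave 416, the fit without 50 µM recovery 285, thinning 53, the 4 groups 265, and leaving out a library 49 to 75. For 50 against 25 µM (2172), only those groups gave 0, thinning 1417, and leaving out a library 931 (50 µM library 2) to 3766 (50 µM library 1). The signed recovery median of genes called at 24 h (0.2142) was 0.2945 without a filter, 0.2895 with the replicate block and 0.1981 to 0.3106 with a library left out. The causes were not tested. Of the lists with at least 5 tested members, cell type markers left out, 20 had a positive median, and 18 to 23 under the alternatives.

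In the vehicle and 25 µM recovery groups, deviations of same-numbered libraries from their group mean correlated at -0.125, -0.204 and -0.0638. With 3 libraries of unequal depth per group, such values cannot decide whether replicate numbers pair the samples. With the replicate block 0 genes were called after recovery, 2 in the interaction and 89 at 24 h. The matrix glycoprotein median (-0.13) ranged from -0.2975 to 0.02932 with a library left out. SERPINE2 after recovery (0.03) was -0.1807 after thinning and -0.01672 to 0.0887 with a library left out. Direction after recovery was followed through the alternatives for 45 named genes, and of these all but SERPINE2 kept it. IFIT1, STC2, TGFB2, ANGPTL4, GOLPH3, PRDX3 and ROMO1 were not among the 45. The depth of 582233 counts in the shallowest 25 µM library limits genes of few counts, OSGIN1, OAS1 and CDC25A among them.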
